A study of Mus musculus with 12 samples.

Results

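The replication-dependent histone genes of the mouse were compared across 4 groups of B16F10 cells, an established mouse melanoma line. The genes were all protein-coding rows of the count table whose symbol begins with Hist, a digit and h, which gave 67 of 54752 genes. They encode 6 H1, 18 H2A, 18 H2B, 12 H3 and 13 H4 histones. In the mm10 build (GRCm38, GENCODE M21), 54 lie in cluster 1 on chromosome 13, 10 in cluster 2 on chromosome 3, 2 in cluster 3 on chromosome 11 and 1, Hist4h4, on chromosome 6. The groups were control cells, whose genotype is labelled WT, cells labelled as knockout of Ep300 (Ep300_KO), of Crebbp (Crebbp_KO) and of both genes (double_KO), with 3 libraries each and the same growth medium. The labels do not say whether the knockouts are clones or pools, nor whether the 3 libraries of a group came from separate cultures, so the p-values measure only the spread between these libraries, which may be technical.

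EP300 and CREBBP are paralogous acetyltransferases and transcriptional co-activators. Histones H2A, H2B, H3 and H4 form the core of the nucleosome and H1 binds the DNA that enters and leaves it. The genes of these replication-dependent histones are transcribed mainly in S phase, when new chromatin is assembled, and lack introns as a rule. Their mRNAs end behind a short stem-loop that binds the protein SLBP, and the usual form has no poly(A) tail. Many copies of each type are nearly identical, and longer polyadenylated transcripts of some of them are known in cells that have left the cell cycle.

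The sequence the mRNAs share is shown first because it defines the class. A stem of 6 perfectly paired bases beginning with GG, around a loop of 4 bases beginning with TT, was found within 100 bases after the stop codon in 44 of the 67 genes, in 6 versions. The 26-base windows below (GENCODE M21 transcripts, 5′ to 3′, written as DNA) carry the stem-loop in capitals for the genes on which the results turn, 1 from each of 4 versions plus a repeat of the commonest.
Hist3h2a: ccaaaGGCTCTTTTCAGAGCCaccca
Hist1h1d: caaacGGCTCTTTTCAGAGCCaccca
Hist1h2bb: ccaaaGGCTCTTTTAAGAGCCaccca
Hist1h4d: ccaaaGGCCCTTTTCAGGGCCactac
Hist2h4: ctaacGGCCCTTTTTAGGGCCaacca
The version of Hist3h2a and Hist1h1d stood in 26 genes. That of Hist1h2bb was in 6 and that of Hist1h4d in 7, all 7 of them H4 genes, while that of Hist2h4 was in 2. No such stem-loop was found in this window of the annotated transcripts of Hist2h2be or Hist1h4a. This says only that no such letters are in that window. Many genes without a hit could not give one. The annotated transcripts of Hist1h2bl, Hist1h3h, Hist1h4k and Hist2h2ab, for example, end 0 bases past the stop codon. The 44 is therefore not a count of the genes that have a stem-loop.

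RefSeq promoters (GRCm38.p6, 250 bases before to 50 after the start) were matched for 61 of the 67 genes, in 62 windows. The letters TATAAA, on either strand, stood in 56.5% of the 62 histone windows and in 13.6% of all 32851 promoters of the same length. CCAAT stood in 85.5% against 37.4%, with every H1, H2A, H2B and H3 window holding it and 25% of the H4 windows. The octamer ATTTGCAT stood in 22.6% against 1.74%, in 41.2% of the H2A and 41.2% of the H2B windows and in no window of the other types. Windows of divergent genes such as Hist1h2ae and Hist1h2bg overlap, so the same site can count for both. No match to 1 of the 3 motifs overlapped a match to another in the 62 windows, and a match is a description, not a binding site. Windows of 3 genes are shown, with these letters in capitals: Hist3h2a (chr11:58954435-58954734, plus strand), the member with the largest increase in the double knockout apart from Hist1h2aa; Hist2h2ac (chr3:96220831-96221130, minus strand), whose window spans the 239 bases to the start of the divergent gene Hist2h2be; and Hist1h2bb (chr13:23746484-23746783, plus strand), an abundant H2B gene that fell.
Hist3h2a: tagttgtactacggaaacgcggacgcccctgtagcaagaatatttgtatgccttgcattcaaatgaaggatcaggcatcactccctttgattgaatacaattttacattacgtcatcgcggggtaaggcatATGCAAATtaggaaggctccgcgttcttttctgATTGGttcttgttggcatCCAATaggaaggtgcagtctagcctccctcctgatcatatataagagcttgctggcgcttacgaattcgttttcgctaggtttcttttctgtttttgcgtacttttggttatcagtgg
Hist2h2ac: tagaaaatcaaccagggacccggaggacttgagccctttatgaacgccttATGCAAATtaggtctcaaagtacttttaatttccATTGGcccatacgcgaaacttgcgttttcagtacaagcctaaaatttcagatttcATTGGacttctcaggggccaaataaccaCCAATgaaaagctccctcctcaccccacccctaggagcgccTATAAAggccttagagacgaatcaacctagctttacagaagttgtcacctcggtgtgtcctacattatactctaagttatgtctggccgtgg
Hist1h2bb: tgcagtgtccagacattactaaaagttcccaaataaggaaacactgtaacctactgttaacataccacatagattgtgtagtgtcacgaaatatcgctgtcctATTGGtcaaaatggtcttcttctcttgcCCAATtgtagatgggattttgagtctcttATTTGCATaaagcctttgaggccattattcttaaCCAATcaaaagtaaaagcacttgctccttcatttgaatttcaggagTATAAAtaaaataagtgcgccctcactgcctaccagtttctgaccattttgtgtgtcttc
All 3 windows held CCAAT and the octamer, on one strand or the other. The part of these letters in the changes of the genes was not tested.

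Total counts ran from 64257251 to 85604243 per library, and the 67 genes held between 0.676% and 0.966% of them. Of the 67, 59 were tested, 2 had too few counts (Hist1h2bm and Hist1h2ak) and 6 were at 0 in all 12 libraries (Hist1h1b, Hist2h2aa1, Hist2h2aa2, Hist2h3c1, Hist2h3b and Hist2h2bb). For each of these 6 except Hist1h1b, 100% of the 50-base stretches in the coding sequence recur in other genes. Other genes also overlap 100% of their exon bases, on one strand or the other. Their 0 counts therefore do not show that they are silent, and the sums and shares below lack any reads of theirs. Crebbp was 69.5, 56.7 and 67.9 CPM (counts scaled to a library of fixed size) in control and 36.8, 36.3 and 30.3 in Crebbp_KO, but 66.2, 68.7 and 57.1 in double_KO. Ep300 was 98.5, 85.5 and 99.2 CPM in control, 77.5, 82.9 and 94.7 in Ep300_KO and 146, 160.2 and 138 in double_KO. A gene count does not show whether the edited transcript encodes a working protein, but no decrease of either target beyond the spread between libraries was seen in double_KO against control, and the Ep300 levels of Ep300_KO and control overlapped. Ep300_KO, Crebbp_KO and double_KO below therefore stand for the libraries with these labels. All 7 melanocyte markers were detected, with summed levels of 19448 to 21397 CPM in control and 6526 to 6694 CPM in double_KO, where all 7 were lower, and the summed fibroblast markers were at 6.37 to 8.14 CPM in control, 14.5 to 19.4 in Ep300_KO, 8.56 to 12.3 in Crebbp_KO and 12.7 to 13.8 in double_KO. The summed immune, endothelial and epithelial markers were at most 2.19 CPM in any library. Although the kit is labelled for mRNA, the small nuclear RNA Rn7sk, which has no poly(A) tail, held 2.58% to 3.97% of the counts. Whether the histone reads came from transcripts that end at the stem-loop or from longer ones was not tested.

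The summed level of the 67 genes was lowest in the double knockout. It was 7432, 9103 and 7806 CPM in control, 9070.0, 9939 and 8882 in Ep300_KO, 8622, 8429 and 10608 in Crebbp_KO and 6868, 6021 and 6545 in double_KO, after TMM scaling of the libraries. The 3 double_KO libraries lay below all 9 others, whereas the control, Ep300_KO and Crebbp_KO libraries overlapped. The group means were 8114 ± 877, 9297 ± 564, 9219.7 ± 1206 and 6478 ± 428 CPM (SD, n = 3). All 5 histone types had their lowest mean in double_KO. The H4 sum was 3213 ± 391 CPM in control and 2671 ± 169 in double_KO, and the H1 sum was 1614 ± 192 and 1168 ± 71.4. With total counts in place of TMM the double_KO mean was 7188 CPM against 7625 in control, a log2 ratio of -0.085 in place of -0.325, and the libraries of both groups overlapped, at 7566, 6757 and 7242 CPM against 7278, 8101 and 7496. Within control and within Crebbp_KO, the library with the highest histone sum, control replicate 2 and Crebbp_KO replicate 3, also had the lowest TMM factor and the highest share of Rn7sk, and the part of either in the sums was not tested. In bulk RNA, fewer cells in S phase and less histone RNA per cell cannot be told apart.

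**Figure D1:**
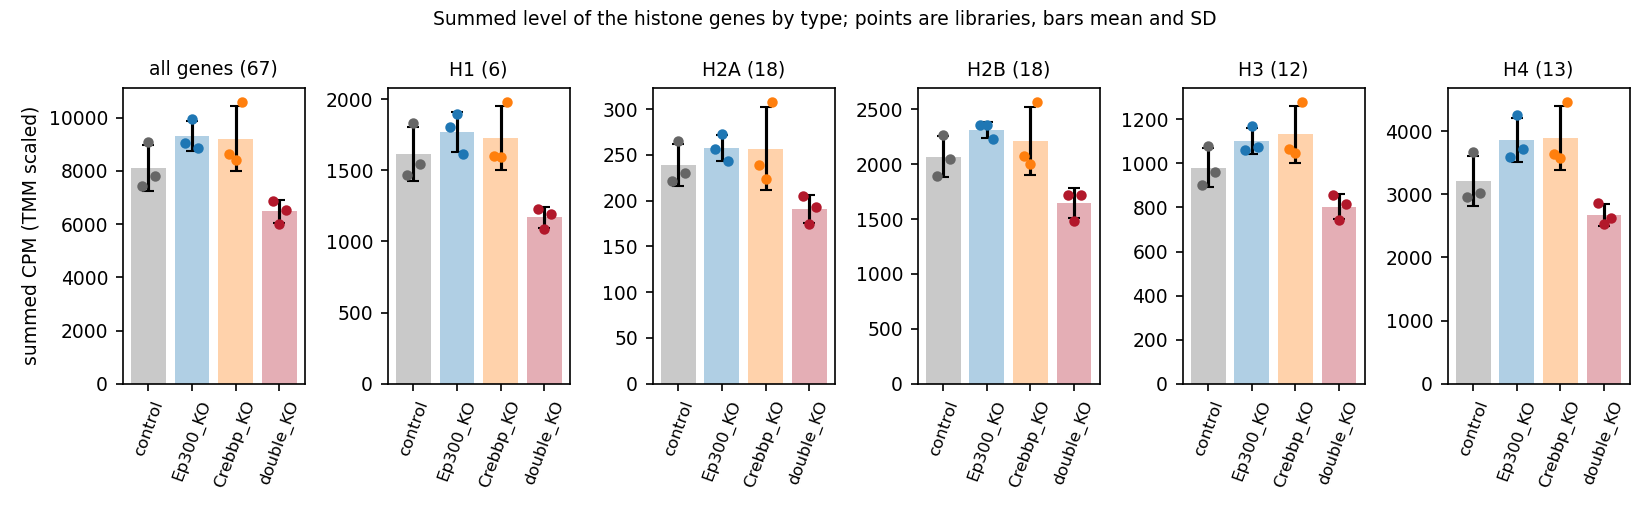
Summed CPM (TMM scaled) of the histone genes, all and by type, in the 4 groups; points are the 3 libraries, bars the mean and whiskers the SD. The 3 double_KO libraries, between 6021 and 6868 CPM over all genes, lie below the 9 others, while with total counts in place of TMM the double_KO and control libraries overlap.

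Per kilobase of annotated exon, the levels of the H4 gene Hist1h4f, the H2B gene Hist1h2bg and the H4 gene Hist1h4h were highest, with means of 829, 803 and 783 CPM per kb over the 12 libraries. Hist1h4a followed at 691, Hist2h4 at 577, Hist1h2bb at 568 and Hist1h4d at 538 CPM per kb. The ranges of the first 3 over the 12 libraries overlapped. Annotated exon lengths run from the coding part alone to several kilobases, so this order depends on the gene models. Reads of near-identical copies add to the uncertainty: a median of 76.2% of the 50-base stretches in a gene's coding sequence recurred in another gene, and 54 of the 67 genes shared more than 50%. How the counting treated such reads is not given in the sources used here.

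In the libraries labelled Ep300_KO some histone genes were modestly higher than in control, and no decrease passed the test. Of the 59 tested genes, 13 rose (adjusted p under 0.05, edgeR quasi-likelihood test), none fell and 46 were not called, with a median log2 fold change of 0.20. Among all 18434 tested genes, 16.1% were called, 7.27% as higher and 8.83% as lower, and the median was 0.01. The libraries of the 2 groups did not overlap in 21 members, all higher, against 13.8% of all genes higher and 14.6% lower. At an unadjusted p under 0.05 there were 22 members, and DESeq2 and limma-voom called 16 and 10, none of them lower. The shares of all genes under these criteria are not given here, and the 16.1% does not apply to them. By type, 5 of 16 H2B genes, 4 of 13 H4, 2 of 10 H3, 1 of 15 H2A and 1 of 5 H1 genes rose. The H2B gene Hist3h2ba changed most, followed by Hist3h2a and, at smaller sizes, the H4 genes Hist1h4n (0.60) and Hist1h4b (0.50), the H3 gene Hist1h3i (0.54) and the H2B genes Hist1h2ba (0.49, a testis form), Hist1h2bf (0.48) and Hist1h2bq (0.43), all as log2 fold changes. Hist4h4 rose by 0.43 ± 0.13 (adjusted p = 0.0371), a call lost in 9 of 22 alternatives, Hist1h4i by 0.41 ± 0.09 (adjusted p = 0.00474), Hist1h1c by 0.25 ± 0.08 (adjusted p = 0.0321), a call lost in 8 of 22, and Hist2h3c2 by 0.27. Hist2h2be completes the 13. Leaving out control replicate 1 gave 5 calls, control replicate 3 gave 6, Ep300_KO replicate 2 gave 5 and Ep300_KO replicate 3 gave 6. There were 7 with only the 2 groups in the fit, and 23, all higher, with total counts in place of TMM. Under total counts 7.95% of all tested genes were higher and 5.95% lower.

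In the libraries labelled Crebbp_KO fewer genes were called. Here 9 of 59 genes rose, none fell and 50 were not called, with a median of 0.23, where 3.13% of all tested genes were called, 1.52% as higher and 1.61% as lower, and the median was -0.01. Libraries did not overlap in 21 members that were higher and 1 that was lower, against 10.9% and 9.61% of all genes. At an unadjusted p under 0.05 there were 26 members, and limma-voom called 9, none lower. For these criteria too the shares of all genes are not given, and the 3.13% does not apply to them. The 9 were Hist1h4b (0.74), Hist1h3i (0.65), Hist1h2bf (0.56), Hist1h3h (0.53), Hist2h3c2 (0.41), Hist1h1e (0.31), Hist1h4d (0.31), Hist1h1c (0.30) and Hist3h2ba (1.53), as log2 fold changes. None of the 15 tested H2A genes was called. The number of calls depended on single libraries. Leaving out control replicate 1 gave 2 calls and leaving out control replicate 3 gave 1, and there were 5, 2 and 4 without Crebbp_KO replicates 1, 2 and 3, where the last 4 were 2 higher and 2 lower. It was 15 with DESeq2 (14 higher, 1 lower), 18 without a filter on low counts (17 higher, 1 lower), 14 (12 higher, 2 lower) with offsets for length and GC content, 4 with only the 2 groups in the fit and 5 with a replicate block. Both comparisons share the control libraries.

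The double knockout combined a few large increases with moderate decreases in most of the genes that changed. Against control, 5 of 58 genes rose, 25 fell and 28 were not called, with a median log2 fold change of -0.26. Hist1h2aa is left out of these numbers because it passed the filter on low counts only through double_KO, so that its call as higher was set by the filter; with it the counts are 6, 25 and 28 of 59 and the median is -0.25. In this comparison 49.4% of all tested genes were called, 24.7% as higher and 24.6% as lower, with a median of -0.02. Of the 59, libraries did not overlap in 8 members that were higher, Hist1h2aa among them, and 29 that were lower, against 30.1% and 29.6% of all genes. The share of members called was thus near that of all genes. The balance of directions depended on the scaling. With total counts, 11 of the 59 members were higher, Hist1h2aa among them, and 9 lower, where 37.7% of all tested genes were higher and 14.2% lower. The share of members called lower was then near that of all genes. The median was -0.01, and the median of all genes was 0.22. The median of the members thus lay 0.24 below that of all genes under TMM and 0.23 below under total counts. A change of scaling moves every gene by nearly the same amount, here 0.23. The gap between the medians is therefore nearly fixed across scalings, and these values are not separate evidence. All 6 genes called higher, Hist1h2aa included, and 9 of the 25 lower ones were called in the same direction under both scalings, and no member was called in opposite directions. With offsets for length and GC content the counts were 11 higher and 24 lower. Without double_KO replicate 2 they were 5 higher and 14 lower.

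**Figure D2:**
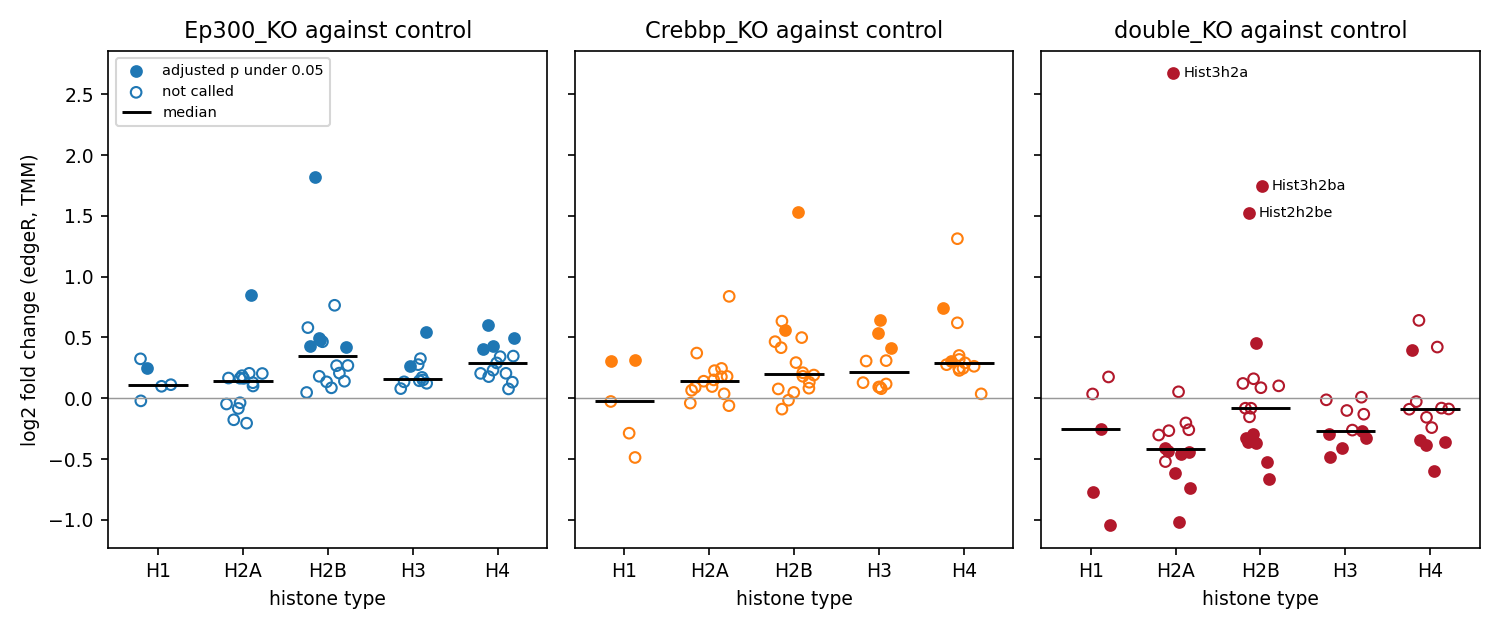
Log2 fold changes of 58 tested histone genes against control by histone type in the 3 knockout groups; filled points have an adjusted p under 0.05 and lines are medians. Hist1h2aa, near 0 counts outside double_KO, is not drawn. In double_KO, Hist3h2a, Hist3h2ba and Hist2h2be stand above the rest while 25 genes are lower. Under total-count scaling 9 are lower and 11 higher, Hist1h2aa included, beside 14.2% of all tested genes lower and 37.7% higher.

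Hist3h2a encodes an H2A and lies with Hist3h2ba in cluster 3 (chr11:58954685-58956830, plus strand). Its level was 2.60, 3.01 and 2.74 CPM in control, 5.20, 4.58 and 5.20 in Ep300_KO, 3.54, 2.08 and 3.07 in Crebbp_KO and 17.4, 16.9 and 18.8 in double_KO. All 3 double_KO libraries lay above all others, and Ep300_KO lay between them and control. Its group means were 2.78 ± 0.206, 4.99 ± 0.359, 2.90 ± 0.749 and 17.7 ± 0.999 CPM. The log2 fold change against control was 2.67 ± 0.14 in double_KO (adjusted p = 7.93e-10), 0.85 ± 0.15 in Ep300_KO (adjusted p = 0.00074) and 0.07 ± 0.15 in Crebbp_KO (adjusted p = 0.858). The annotated transcript runs 1700 bases past the stop codon, has a poly(A) signal at its end, and shares 33.0% of its exon bases with the gene Trim17 on the same strand. Of the 50-base stretches in its coding sequence 100% recur in other genes, Trim17 first among them, so its reads cannot be assigned with certainty. Trim17 itself stayed between 0.348 and 0.891 CPM in the 12 libraries. Which part of the transcript the Hist3h2a reads came from was not tested.

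Hist2h2be, an H2B gene of cluster 2 (chr3:96221119-96223738, plus strand), had levels of 3.71, 3.39 and 3.24 CPM in control, 4.74, 4.23 and 4.91 in Ep300_KO, 3.38, 3.49 and 3.36 in Crebbp_KO and 9.98, 9.46 and 10.3 in double_KO. Here too the double_KO libraries were above all others and Ep300_KO was above control without overlap. The log2 fold change was 1.52 ± 0.09 in double_KO (adjusted p = 4.08e-09) and 0.42 ± 0.10 in Ep300_KO (adjusted p = 0.0063), against -0.02 ± 0.10 in Crebbp_KO (adjusted p = 0.951). None of its coding 50-base stretches recurred elsewhere, no other gene overlaps it, and its transcript runs 2192 bases past the stop codon to a poly(A) signal. The divergent neighbour Hist2h2ac, which starts 239 bases away, had a log2 fold change of -0.30 ± 0.13 in double_KO (adjusted p = 0.0573).

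Hist3h2ba, the H2B gene of cluster 3 (chr11:58948920-58949533, plus strand), was barely detected. Its levels were 0.470, 0.542 and 0.149 CPM in control, 0.959, 1.33 and 1.74 in Ep300_KO, 0.855, 1.06 and 1.39 in Crebbp_KO and 1.42, 1.11 and 1.29 in double_KO. All 9 knockout libraries lay above the 3 control libraries, and the knockout groups overlapped one another. The log2 fold change was 1.82 ± 0.35 in Ep300_KO (adjusted p = 0.0016), 1.53 ± 0.35 in Crebbp_KO (adjusted p = 0.0308, lost in 6 of 22 alternatives) and 1.74 ± 0.35 in double_KO (adjusted p = 0.000669). The neighbouring pseudogene Hist3h2bb-ps, which shares 37.7% of the 50-base stretches, was at 67.3, 84.3 and 59.9 CPM in control and 137, 142 and 106 in Ep300_KO, so reads of this pair may be split between them. Its levels in Crebbp_KO and double_KO are not given here. The part of the pseudogene in the calls of Hist3h2ba was not tested in any group.

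Hist1h2aa, a testis form of H2A, passed the filter on low counts only through the double knockout. Its libraries were at 0.0127, 0 and 0 CPM in control, 0.0278, 0 and 0.0119 in Ep300_KO, 0, 0 and 0 in Crebbp_KO and 0.261, 0.177 and 0.214 in double_KO. Summed over libraries there were 59 counts in double_KO and 1 in control. Because the gene was tested only through its level in double_KO, no ratio or interval is drawn from these counts. The divergent testis H2B gene Hist1h2ba, 281 bases away, rose by 0.46 ± 0.16 in double_KO (adjusted p = 0.0267). Hist1h4i, an H4 gene whose annotated transcript ends near a poly(A) signal, was at 21.4, 25.01 and 21.7 CPM in control, 28.2, 28.9 and 33.1 in Ep300_KO, 24.2, 27.0 and 29.3 in Crebbp_KO and 31.4, 29.3 and 28.7 in double_KO. It rose by 0.40 ± 0.09 in double_KO (adjusted p = 0.00184), and its control libraries lay below all double_KO libraries.

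**Figure D3:**
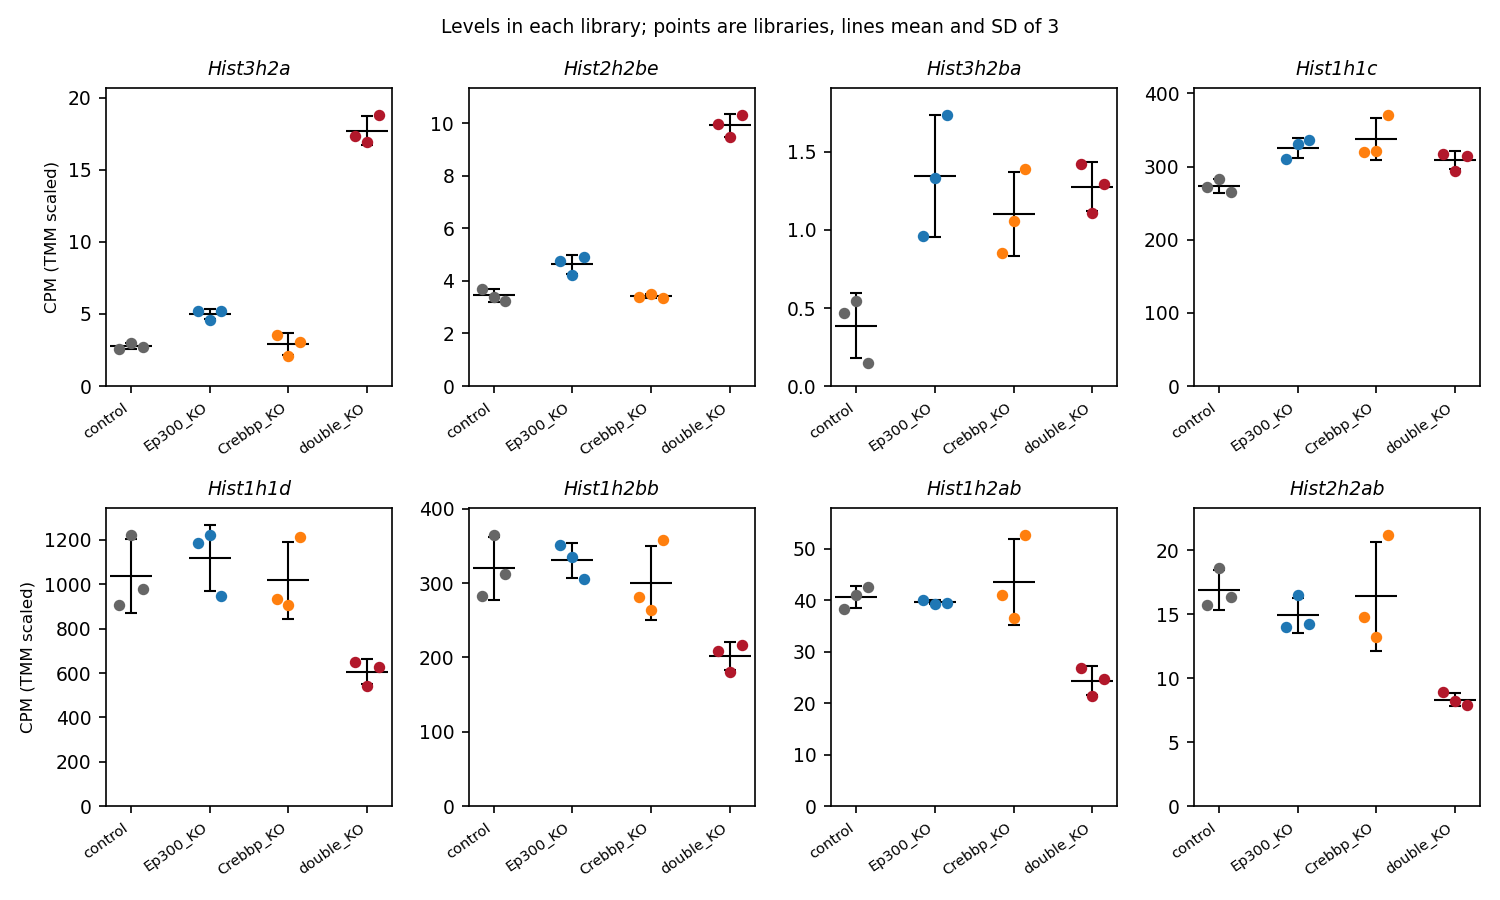
CPM (TMM scaled) of 8 histone genes in every library of the 4 groups; points are libraries, lines the mean and SD of 3. In double_KO the top left genes Hist3h2a and Hist2h2be reach 18.8 and 10.3 CPM, and the 4 genes of the lower row lie below the other groups.

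Among the H1 linker histones, 3 of 5 tested genes fell in double_KO and none rose. This count and those of the other types below stand beside 24.7% of all tested genes higher and 24.6% lower. Hist1h1d was at 907, 1224 and 979 CPM in control, 1187, 1224 and 949 in Ep300_KO, 932, 905 and 1215 in Crebbp_KO and 648, 544 and 626 in double_KO. Its double_KO libraries were below the 9 others, which overlapped, and it changed by -0.77 ± 0.14 (adjusted p = 0.000317). Hist1h1e, at 276, 310.2 and 287 CPM in control, 292, 323 and 319 in Ep300_KO, 343, 356 and 385 in Crebbp_KO and 250.2, 242 and 241 in double_KO, was lower in double_KO than in every other library, with -0.25 ± 0.07 (adjusted p = 0.0101), but with total counts its change was -0.01 and not called. In Crebbp_KO it rose by 0.31 ± 0.07 (adjusted p = 0.0338), lost in 11 of 22 alternatives. The genes Hist1h2be and Gm11398 overlap 25.7% of its exon bases on the same strand, so its reads cannot all be assigned with certainty. Hist1h1c behaved otherwise: its values were 273, 283 and 265 CPM in control, 310.4, 331 and 336 in Ep300_KO, 320.3, 321 and 371 in Crebbp_KO and 318, 294 and 315 in double_KO, and all knockout libraries lay above control. The change in double_KO was 0.18 ± 0.08 (adjusted p = 0.067), not called, and with total counts 0.41 and called as higher; in Crebbp_KO it was 0.30 ± 0.08 (adjusted p = 0.0418), lost in 12 of 22. The testis form Hist1h1t was at 5.94, 6.98 and 5.75 CPM in control, 6.99, 5.98 and 5.41 in Ep300_KO, 3.83, 4.23 and 5.25 in Crebbp_KO and 3.24, 2.99 and 2.80 in double_KO. Its double_KO libraries were lowest, with -1.04 ± 0.14 (adjusted p = 1.5e-05).

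The share of each gene among the counts of its own histone type does not depend on how libraries are scaled. It is a share of reads and, like the sums by type above, is not corrected for length. Annotated exons span 7425 bases in Hist1h1d, 1560 in Hist1h1c and 1930 in Hist1h1e. Per kilobase of annotated exon their means over the 12 libraries were 127, 200 and 156 CPM. Of the H1 counts, Hist1h1d held 61.8, 66.8 and 63.5% in control and 52.9, 49.9 and 52.6% in double_KO, and Hist1h1c held 18.6, 15.5 and 17.2% and 25.9, 27.0 and 26.4%. For both genes the double_KO libraries lay outside all others, so the H1 mixture had less Hist1h1d and more Hist1h1c reads. The share of Hist1h1e was 18.1 ± 1.02% in control, 21.0 ± 1.498% in Crebbp_KO and 20.9 ± 1.09% in double_KO (SD, n = 3). Of the H2A counts, Hist3h2a held 1.17 ± 0.0292% in control, 1.95 ± 0.237% in Ep300_KO, 1.14 ± 0.303% in Crebbp_KO and 9.30 ± 0.732% in double_KO. Of the H2B counts, Hist2h2be held 0.168 ± 0.0246% in control and 0.605 ± 0.0289% in double_KO, and Hist1h2bb 15.4 ± 0.615% and 12.3 ± 0.256%. These shares are descriptions, with no test.

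**Figure D4:**
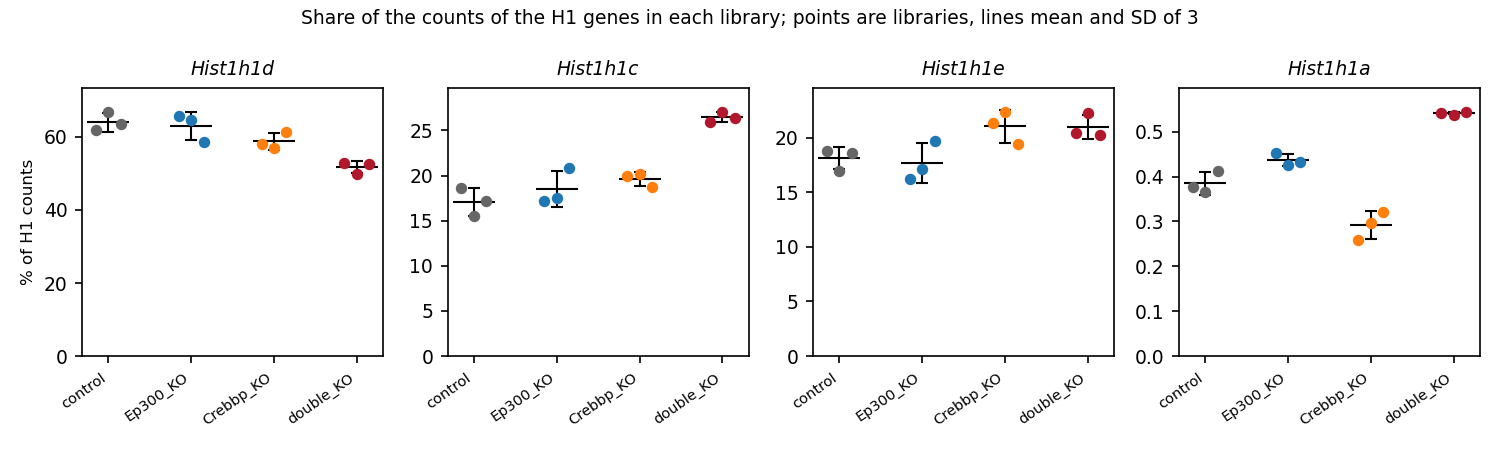
Share of the H1 counts held by 4 H1 genes in each library; points are libraries, lines the mean and SD of 3, and each panel has its own axis from 0. Hist1h1d falls from a mean of 64.04% in control to 51.8% in double_KO while Hist1h1c goes from 17.1% to 26.5%. Shares are of reads and are not corrected for the longer annotated exons of Hist1h1d.

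Of the 15 tested H2A genes, 7 fell in double_KO and Hist3h2a rose, while the call of Hist1h2aa as higher was set by the filter on low counts. Hist2h2ab of cluster 2 was at 15.7, 18.6 and 16.3 CPM in control, 14.0, 16.5 and 14.2 in Ep300_KO, 14.8, 13.2 and 21.2 in Crebbp_KO and 8.88, 8.20 and 7.88 in double_KO. It changed by -1.02 ± 0.14 (adjusted p = 3.04e-05), and 68.2% of its exon bases overlap an antisense gene. Hist1h2ab had 38.3, 41.1 and 42.5 CPM in control, 40.0, 39.3 and 39.5 in Ep300_KO, 41.0, 36.5 and 52.7 in Crebbp_KO and 26.9, 21.5 and 24.7 in double_KO, a change of -0.74 ± 0.11 (adjusted p = 7.2e-05). For both, the double_KO libraries were below all others. Hist1h2ag was at 11.4, 14.6 and 13.1 CPM in control, 12.5, 13.1 and 11.2 in Ep300_KO, 12.8, 11.0 and 13.6 in Crebbp_KO and 9.19, 7.72 and 8.62 in double_KO and changed by -0.61 ± 0.11 (adjusted p = 0.000274), although 100% of its 50-base stretches recur in other H2A genes. Hist1h2af, at 4.77, 5.32 and 4.73 CPM in control, 4.56, 4.92 and 4.83 in Ep300_KO, 5.36, 5.08 and 5.30 in Crebbp_KO and 4.12, 3.54 and 3.48 in double_KO, changed by -0.41 ± 0.10 (adjusted p = 0.00317), a call lost with total counts. The other 3 that fell, Hist1h2ao, Hist1h2ap and Hist1h2ae, had log2 fold changes between -0.46 and -0.43, and their calls were also lost with total counts.

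Among 16 tested H2B genes, 6 fell in double_KO and 3 rose (Hist2h2be, Hist3h2ba and Hist1h2ba). Hist1h2bb was at 283, 365 and 312 CPM in control, 351, 335 and 305 in Ep300_KO, 281, 263 and 358 in Crebbp_KO and 209, 180.4 and 216 in double_KO. The double_KO libraries were lowest, and the change was -0.66 ± 0.12 (adjusted p = 0.000318). Hist1h2bh had 181, 185 and 193 CPM in control, 205, 188 and 199.6 in Ep300_KO, 186, 179 and 226 in Crebbp_KO and 133, 117 and 138 in double_KO, a change of -0.52 ± 0.09 (adjusted p = 0.00019). Both kept their call with total counts. Hist1h2bg, at 457, 571 and 496 CPM in control, 588, 570.2 and 521 in Ep300_KO, 498, 475 and 601 in Crebbp_KO and 411, 356 and 414 in double_KO, changed by -0.37 ± 0.11 (adjusted p = 0.00966). Hist1h2be, at 255, 311 and 276 CPM in control, 323, 324 and 307 in Ep300_KO, 280.0, 267 and 340.4 in Crebbp_KO and 234, 199 and 236 in double_KO, changed by -0.33 ± 0.10 (adjusted p = 0.014). Calls of the latter pair were lost with total counts, as were those of Hist1h2bk and Hist1h2bj. Of the exon bases of Hist1h2be, 11.2% overlap Hist1h1e and Gm11398 on the same strand. Hist1h2bn, at 57.1, 66.7 and 57.9 CPM in control, 67.8, 77.2 and 73.7 in Ep300_KO, 68.9, 66.8 and 86.9 in Crebbp_KO and 59.1, 50.02 and 54.3 in double_KO, was not called against control (-0.15 ± 0.10) but fell against Ep300_KO, with a log2 fold change of -0.42 ± 0.10 (adjusted p = 0.00521).

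Of 10 tested H3 genes, 5 fell and none rose in double_KO. Hist1h3g was at 89.5, 106 and 95.6 CPM in control, 104, 113 and 105 in Ep300_KO, 103, 96.1 and 119 in Crebbp_KO and 74.3, 61.9 and 72.2 in double_KO, with every double_KO library below all others. Its change was -0.48 ± 0.09 (adjusted p = 0.000521), and it was the H3 gene whose call also held with total counts. Hist1h3b, Hist1h3c, Hist1h3e and Hist1h3f, with log2 fold changes between -0.41 and -0.27, lost theirs.

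Of 13 tested H4 genes, which encode the same protein, 4 fell and 1 rose. Hist1h4a was at 338, 441 and 370.2 CPM in control, 391, 431 and 389 in Ep300_KO, 430.3, 413 and 504 in Crebbp_KO and 270.3, 232 and 258 in double_KO. Its double_KO libraries were below all others, with a change of -0.60 ± 0.11 (adjusted p = 0.000258), called under both scalings. Hist2h4 of cluster 2 was at 785, 1061 and 829.6 CPM in control, 1079.9, 1297 and 1013 in Ep300_KO, 947, 943 and 1282 in Crebbp_KO and 775, 649.6 and 623 in double_KO, a change of -0.39 ± 0.15 (adjusted p = 0.0395). Hist4h4 was at 406, 513 and 399 CPM in control, 555, 693 and 527 in Ep300_KO, 499, 465 and 632 in Crebbp_KO and 362, 323 and 355 in double_KO, a change of -0.34 ± 0.13 (adjusted p = 0.043). Both calls were lost with total counts, and in 7 and 9 of 22 alternatives in all. That of Hist1h4k was also lost with total counts. Hist1h4d, at 563, 604 and 553 CPM in control, 603, 629 and 652 in Ep300_KO, 686, 672 and 771 in Crebbp_KO and 562, 521 and 534 in double_KO, had the highest values in Crebbp_KO and was not called in double_KO (-0.09 ± 0.08); its rise in Crebbp_KO was 0.31 ± 0.08 (adjusted p = 0.0448), lost in 12 of 22. Hist1h4h, at 316, 372 and 307 CPM in control, 361, 449 and 406 in Ep300_KO, 395, 403 and 471 in Crebbp_KO and 335, 298 and 302 in double_KO, and Hist1h4f, at 286, 344 and 293 CPM in control, 309, 396 and 377 in Ep300_KO, 349, 339.9 and 418 in Crebbp_KO and 273, 236 and 271 in double_KO, were not called against control (-0.09 ± 0.10 and -0.24 ± 0.11). Both fell in double_KO against Ep300_KO, with log2 fold changes of -0.38 ± 0.10 (adjusted p = 0.0101, lost in 4 of 22 alternatives) and -0.47 ± 0.11 (adjusted p = 0.00458).

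More histone genes passed the test between the double knockout and either single knockout than against control. In double_KO against Ep300_KO, 42 of 59 genes were lower, 3 higher and 14 not called, with a median of -0.43, where 34.6% of all tested genes were called, 18% as higher and 16.6% as lower. Libraries did not overlap in 3 members that were higher, Hist1h2aa among them, and 47 that were lower, against 24.4% and 23% of all genes. All 10 H3 genes, 11 of 15 H2A, 9 of 16 H2B, 9 of 13 H4 and 3 of 5 H1 genes were lower. In double_KO against Crebbp_KO, 44 were lower and 3 higher, with a median of -0.49, where 43.2% of all tested genes were called, 21.4% as higher and 21.8% as lower. Here 3 members, Hist1h2aa again among them, were higher and 45 lower without overlap, against 28.4% and 28% of all genes. Hist3h2a and Hist2h2be were higher in both. The remaining call in each is Hist1h2aa, with 3 counts in Ep300_KO and 0 in Crebbp_KO, which was set by the filter, and DESeq2 did not call it against Ep300_KO. With total counts 28 and 36 genes were lower, beside 8.89% and 12.3% of all tested genes. Higher were 3 and 5, Hist1h2aa among them in both, beside 28.8% and 33.1% of all tested genes. These comparisons share the double_KO libraries.

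Whether Crebbp knockout was accompanied by a different change in cells labelled as with and without Ep300 was tested, after earlier results of these data were known, as a difference of log2 fold changes, double_KO against Ep300_KO minus Crebbp_KO against control. It passed the test in 42 of 59 genes, with a lower value in 40 and a higher one in 2, and the median difference was -0.69. Of all tested genes 10.3% passed, 5.33% as higher and 4.96% as lower. The log2 fold change was positive in 51 of the 59 genes for Crebbp_KO against control and negative in 54 for double_KO against Ep300_KO. The signs were opposite in 50, among them Hist1h2aa, which passed the filter only through double_KO. Shares of all genes with these signs are not given here, and the median over all tested genes was -0.01 in both comparisons. In Crebbp_KO against control 50 of the 59 changes were not called. Crebbp itself was lower on both sides of this difference, by different sizes. It changed by -0.91 ± 0.12 (adjusted p = 0.000527) in Crebbp_KO against control and by -0.33 ± 0.11 (adjusted p = 0.0331) in double_KO against Ep300_KO, where its libraries were at 66.2, 68.7 and 57.1 and 69.1, 80.1 and 92.8 CPM, and the part of this in the histone values was not tested. The 2 higher were Hist3h2a (1.76 ± 0.20, adjusted p = 7.02e-05) and Hist2h2be (1.12 ± 0.13, adjusted p = 9.75e-05). Of the lower ones Hist4h4 (-1.05 ± 0.19, adjusted p = 0.00243), Hist2h4 (-0.97 ± 0.21, adjusted p = 0.00765) and Hist1h1d (-0.86 ± 0.20, adjusted p = 0.0125) are examples. With total counts 36 genes passed, 34 lower and 2 higher, and with offsets for length and GC content 23, 21 lower and 2 higher. Leaving out control replicate 1 gave 27, control replicate 3 gave 27 and Ep300_KO replicate 2 gave 26.

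**Figure D5:**
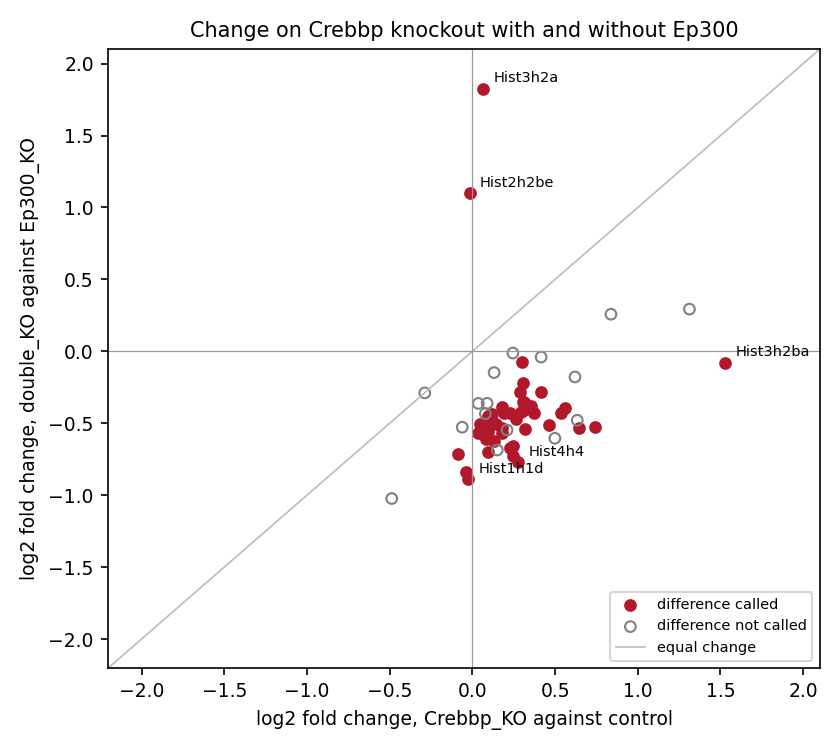
Log2 fold change on Crebbp knockout in cells with Ep300 (Crebbp_KO against control, x axis) and labelled as without it (double_KO against Ep300_KO, y axis) for 58 tested histone genes; filled points passed the test of the difference, and the grey line marks equal change. Hist1h2aa is not drawn. Most points lie right of 0 and below 0, and Hist3h2a and Hist2h2be lie above the line of equal change.

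The single knockouts differed from each other in few genes. In Ep300_KO against Crebbp_KO, 4 of 59 genes were higher and 1 lower, where 13.6% of all tested genes were called, 6.26% as higher and 7.37% as lower, and the median was -0.02. Without overlap, 4 members were higher and 6 lower, against 13% and 14.2% of all genes. Higher in Ep300_KO were Hist3h2a (0.78), the H1 genes Hist1h1a (0.61) and Hist1h1t (0.47, a call lost in 6 of 22 alternatives), and Hist2h2be (0.44). Hist1h2an was lower (-1.04), all as log2 fold changes. With offsets for length and GC content 8 genes were called, 4 in each direction.

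By position, cluster 1 fell into 2 blocks more than 1 Mb apart, chr13:21715763-22043676 with 23 genes and chr13:23531050-23934851 with 31. The counts by block and cluster stand beside 24.7% of all tested genes higher and 24.6% lower in double_KO, and differences between them were not tested. In double_KO against control the first block had 1 gene higher and 6 lower of 20 tested (median -0.13) and the second 2 higher, Hist1h2aa among them, and 16 lower of 31 (median -0.26). Cluster 2 had 1 higher (Hist2h2be) and 2 lower (Hist2h2ab and Hist2h4) of 5, and both genes of cluster 3 were higher. The summed level of cluster 3 was 3.07, 3.55 and 2.89 CPM in control, 6.16, 5.91 and 6.94 in Ep300_KO, 4.40, 3.14 and 4.47 in Crebbp_KO and 18.8, 18.0 and 20.1 in double_KO. Cluster 3 thus had its highest mean in double_KO, where clusters 1, 2 and 4 had their lowest.

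Divergent pairs with starts within 1000 bases numbered 13, of which 12 joined an H2A to an H2B gene, and both genes were tested in 12. The starts lay 164 to 608 bases apart. In double_KO some partners had opposite signs: Hist2h2ac and Hist2h2be had -0.30 and 1.52, Hist1h2ap and Hist1h2br -0.46 and 0.16, and Hist1h2bf and Hist1h2ad 0.09 and -0.26 as log2 fold changes. Of these, only Hist2h2be and Hist1h2ap were called. Hist1h2br was at 0.297 to 0.691 CPM. For Hist1h2br, Hist1h2ap and Hist1h2ad, 100% of the coding 50-base stretches recur in other genes, so their reads cannot be assigned with certainty. Others were alike, such as Hist1h2ae and Hist1h2bg with -0.44 and -0.37. The differences within pairs were not tested.

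By annotated 3′ end, 15 of the 67 genes have a transcript that runs more than 100 bases past the stop codon and carries a poly(A) signal near its end. The counts by class stand beside 24.7% of all tested genes higher and 24.6% lower in double_KO, and differences between the classes were not tested. Of the 14 tested among them, 4 were higher (Hist3h2a, Hist3h2ba, Hist2h2be and Hist1h4i) and 6 lower in double_KO, with a median of -0.12 and a range from -1.04 to 2.67. Of the 31 tested genes that end within 100 bases of the stop codon, 2 were higher, Hist1h2aa among them, and 12 lower, with a median of -0.26, and of the 14 with a longer transcript but no signal, none was higher and 7 were lower, with a median of -0.26. The ends come from the annotation and not from these reads, and Hist4h4 and Hist2h4, both in the first class, were lower.

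Other genes of chromatin assembly and the cell cycle are given for context from lists of known function, all for double_KO against control unless stated, beside 24.7% of all tested genes higher and 24.6% lower. All list values are TMM scaled and are not given with total counts, where 37.7% of all tested genes were higher and 14.2% lower. Among histone variants outside the replication-dependent gene set, whose supply is not tied to S phase as a rule, 3 of 10 rose and 6 fell (median -0.40). The linker variant H1f0 rose from 157 ± 15.3 to 357 ± 6.21 CPM (1.18 ± 0.08, adjusted p = 1.51e-08), and also in Ep300_KO (0.74 ± 0.08) and Crebbp_KO (0.60 ± 0.08). H3f3b rose by 0.76 ± 0.10 and H2afx by 0.34 ± 0.09, while H2afz changed by -1.11 ± 0.13 and H3f3a, which like H3f3b encodes the replacement H3, by -0.63 ± 0.14. The sum over the listed variants was 2269 to 2777 CPM in control and 2509 to 2773 CPM in double_KO, so it overlapped.

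Of 32 genes of S phase and DNA replication, 1 rose and 17 fell in double_KO (median -0.23), none rose and 2 fell in Ep300_KO, and none was called in Crebbp_KO. Cdk2, a kinase of S phase entry and progression, fell from 343 ± 2.86 to 153 ± 1.68 CPM (-1.16 ± 0.06), and Gins1, a subunit of the replicative helicase complex, also fell (-0.95 ± 0.10). The sum of the list was 4845 to 5335 CPM in control, 4702 to 4952 in Ep300_KO, 4999.7 to 5178 in Crebbp_KO and 3961 to 4022 in double_KO. Under TMM scaling it was thus lower in double_KO, as the summed histone level was. In Ep300_KO and Crebbp_KO the mean histone sums were above that of control, though libraries overlapped. The sum of this list did not exceed the highest control library in either. The part of this list in the histone values was not tested. Of 30 genes of histone transcription and 3′ processing, 11 rose and 4 fell (median 0.07). Slbp, whose protein binds the stem-loop, was at 74.4, 80.3 and 74.4 CPM in control and 85.0, 80.4 and 83.7 in double_KO, with 0.12 ± 0.06 (adjusted p = 0.138). Npat, the co-activator of histone genes, rose by 0.46 ± 0.07 (adjusted p = 0.000116), the cleavage factor gene Cstf2t by 0.58 ± 0.06 and Tut7, which encodes a uridylyltransferase, by 0.51 ± 0.07. Among 23 histone chaperone genes, 3 rose and 10 fell (median -0.11), with Daxx (1.02 ± 0.09) and the importin gene Ipo4 (1.11 ± 0.10) higher.

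Of 18 RNAs that end without a poly(A) tail, 11 were tested, and none rose while 3 fell in double_KO (median -0.36). Of all tested genes 24.7% were higher and 24.6% lower, so the share called lower was near that of all genes. Rn7sk changed by -0.62 ± 0.17 (adjusted p = 0.00582), from 32808, 44662 and 37272 CPM to 24011, 22982 and 27461, and Scarna13 by -1.21 ± 0.13 (adjusted p = 3.07e-06). In Ep300_KO and in Crebbp_KO 1 of them, Rn7s2, rose (0.69 ± 0.22 and 0.87 ± 0.22), beside 7.27% and 1.52% of all tested genes. The medians were 0.24 and 0.45. The medians of these RNAs rest on 11 genes, most of them not called. They had the sign of the histone medians in all 3 comparisons, which share the control libraries. The part of these RNAs in the histone values was not tested.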

How the data were processed

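RNA of B16F10 cells was sequenced in 12 libraries (4 groups of 3). Per the labels, RNA was taken with RNeasy Plus Mini and the KAPA Stranded mRNA-Seq kit was used for the libraries. Per the submitters' processing notes, bcl2fastq, HISAT2 and HTSeq were used with build mm10. For tool versions, strand setting, annotation release and multiply mapped reads, nothing is stated in the labels. In the deposited table are the authors' raw read counts per gene, and genes without annotation held at most 0.00378% of a library. GENCODE M21 gave symbols and models and RefSeq gave promoters.

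Genes passing filterByExpr (18434) were tested with edgeR 4.0.16 (quasi-likelihood, robust, R 4.3.3) after TMM scaling on all 12 libraries, with Benjamini-Hochberg adjustment over all tested genes and a threshold of 0.05. The biological coefficient of variation was 9.46%. Errors beside log2 values are standard errors and beside CPM the SD, n = 3. The script was tested on simulated data. Alternatives were DESeq2 1.42.0, limma-voom 3.58.1, RLE size factors, 2 other filters, only the groups compared, a replicate block, offsets for exon length and GC content (mgcv 1.9.3), each library left out and, added after seeing the data, total counts without TMM and the test of the difference of log2 fold changes. Members and lists were chosen with earlier results of these data known. Values in every library were given for the 12 members with the highest mean CPM, at most 15 called against control and 3 called only between knockouts, and 2 genes per list with the smallest adjusted p were named, with Slbp, Npat, H2afx, H2afz, H3f3a and H3f3b. No 2 libraries of a group agreed within sampling noise. The replicate numbers did not pair the samples. Protein sequences were not used here.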

Additional observations from a re-analysis of the deposited data

Results flagged for a closer look

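The difference between the log2 fold change on Crebbp knockout in cells labelled as lacking Ep300 and in cells with Ep300 passed the edgeR test in 20 of the genes whose values in every library were given. It was positive for Hist3h2a (1.76) and Hist2h2be (1.12). It was negative for Hist3h2ba (-1.61), Hist1h2bn (-0.71), Hist1h4h (-0.73), Hist1h3g (-0.75), Hist1h2bh (-0.69), Hist1h4f (-0.73), Hist1h1d (-0.86), Hist1h2bg (-0.56), Hist1h4d (-0.53), Hist1h2be (-0.59), Hist1h1e (-0.66), Hist1h1c (-0.38), Hist1h2bb (-0.62), Hist1h2ab (-0.80), Hist1h4a (-0.90), Hist2h2ab (-0.80), Hist2h4 (-0.97) and Hist4h4 (-1.05). The value of Hist3h2ba rests on levels of at most 1.74 CPM. Of these 20 differences, 11 kept their call under all 18 alternatives run for them and 9 lost it under at least 1. With offsets for length and GC content 7 were lost, namely Hist1h2ab, Hist1h2bb, Hist1h2bg, Hist1h2bn, Hist1h4f, Hist2h2ab and Hist3h2ba, and values were smaller for several, such as -0.18 for Hist1h2bg, -0.23 for Hist1h2bn and -0.30 for Hist1h4h. The replicate block ended the calls of Hist1h1c, Hist1h2bb, Hist1h2bg and Hist3h2ba, and total counts those of Hist1h1c and Hist3h2ba. Hist1h2be lost its call without control replicate 1, control replicate 3, Ep300_KO replicate 2 or double_KO replicate 2.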

How the results depend on the processing

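The number of called histone genes in Ep300_KO against control was 13 and became 7 with only the groups compared and 23 with total counts, and ranged from 5 to 19 when 1 library was left out. In Crebbp_KO against control it was 9 and became 15 with DESeq2, 18 without a filter, 4 in a fit of the compared groups alone, 5 under the replicate block and 14 with offsets for length and GC content, with a range of 1 to 11 without 1 library. In double_KO against control it was 31, became 20 with total counts and ranged from 19 to 35. The 31, and the 45 and 47 below, include Hist1h2aa, whose call was set by the filter on low counts. In Ep300_KO against Crebbp_KO it was 5, became 8 with offsets and 8 with offsets and the replicate block, and ranged from 4 to 5. The comparisons of double_KO with Ep300_KO and with Crebbp_KO, at 45 and 47, ranged from 35 to 48 and from 43 to 47 without 1 library and stayed within 1.5 times under every alternative. The difference of log2 fold changes passed in 42 genes and in 23 with offsets, with a range of 26 to 47 without 1 library. The summed level in double_KO was 7188 CPM with total counts in place of 6478. Hist1h4d in double_KO against Ep300_KO, at -0.22, became 0.023 with offsets (adjusted p = 0.823) and 0.0248 with offsets and the replicate block (adjusted p = 0.82), a reversed sign. Of 77 calls of single named genes, 55 held under all alternatives that gave a value, 22 lost significance under at least 1, and 1 reversed. The calls of Hist1h2aa in double_KO against control and against Crebbp_KO, set by the filter, are among the 55. The cause was not tested in each case. The replicate numbers share only a number: correlations of same-numbered libraries ran from -0.17 to 0.107, 2 of 12 libraries were closest to their own number, and the replicate block left the counts at 9, 5, 29, 42, 46 and 4 in the order Ep300_KO, Crebbp_KO and double_KO against control, double_KO against Ep300_KO and Crebbp_KO, and Ep300_KO against Crebbp_KO. Low counts limit the statements on Hist3h2ba, Hist1h2aa and the 8 untested genes, of which 6 had 0 counts. Except for Hist1h1b, the coding sequences of these 6 recur in full in other genes, and why they were at 0 was not tested.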
